A study of Mus musculus with 4 samples.

Results

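MicroRNAs of mouse small intestinal organoids were compared with those of the epithelium that organoids stand in for, with both organoid arrays on one side and both tissue arrays on the other. A miRNA was taken as separated where both organoid arrays lay above, or both lay below, both tissue arrays. This held for 692 miRNAs of 1658 that were detected on at least 1 array, out of 1897 miRNA probes used. For 441 miRNAs both organoid arrays were above both tissue arrays (26.6% of those tested), and for 251 both were below (15.1%). The remaining 966 overlapped. Separation was judged by the measured levels themselves, so the levels of these miRNAs are given as a description.

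The organoid side consisted of 1 array of organoids cultured for 1 day and 1 array of organoids cultured for 5 days, both grown from mouse small intestinal crypts. The tissue side consisted of 1 array of villus epithelial cells and 1 array of crypt epithelial cells isolated from mouse small intestine. No genotype, strain, age, sex, culture medium, region of the small intestine or number of mice is given in the sources used here. All 4 samples were total RNA, labelled with the dye Cy5 on arrays of 1 colour. The arrays of a side are different kinds of sample and not replicates. The spread within a side therefore holds the difference between day 1 and day 5, or between villus and crypt, and mouse-to-mouse variation was not measured. The day 5 array carried another slide code than the other 3 arrays, so the comparison without it is the comparison within 1 slide.

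MicroRNAs are short RNAs that guide Argonaute proteins to messenger RNAs. Pairing runs mainly through the seed, bases 2 to 8 of the miRNA, and lowers the stability or translation of the target, so miRNAs with the same seed are counted as a family. In the intestine, crypts hold stem cells and dividing progenitors and villi carry differentiated absorptive and secretory cells. Organoids grown from crypts rebuild crypt-like buds and a villus-like lining without the connective tissue, muscle, blood vessels and immune cells that lie under the epithelium in the animal.

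The miRNAs with the widest separation differed in sequence between the 2 directions. Mature sequences are from RefSeq (GRCm38.p6), in lower case with the seed in capitals. The first set shows the miRNAs with the largest gaps that were higher in organoids. They share no seed, and many are rich in G.
miR-7036a-5p: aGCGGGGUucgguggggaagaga
miR-8119: gAGGAGAGggagcuaggguc
miR-6937-5p: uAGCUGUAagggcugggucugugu
miR-7047-5p: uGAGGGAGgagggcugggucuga
miR-6769b-5p: cCUGGUGGguggggaagagc
miR-2137: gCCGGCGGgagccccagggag
miR-8099: cCAAGGCGugggaaagguugu
miR-711: gGGACCCGgggagagauguaag
miR-128-2-5p: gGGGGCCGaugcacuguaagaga
miR-204-3p: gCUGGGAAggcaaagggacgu

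The second set shows miRNAs with large gaps that were lower in organoids, chosen to show the seeds that recur among them. It leaves out miR-7077-5p, which had a gap of -1.55 and 38.1% G. The let-7, miR-29, miR-30 and miR-26 seeds each appear more than once, and miR-215-5p and miR-194-5p are neighbours in the genome.
let-7b-5p: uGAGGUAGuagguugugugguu
let-7f-5p: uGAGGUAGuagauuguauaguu
miR-29a-3p: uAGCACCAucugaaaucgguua
miR-29c-3p: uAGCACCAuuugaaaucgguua
miR-30a-5p: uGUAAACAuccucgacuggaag
miR-30c-5p: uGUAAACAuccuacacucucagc
miR-30e-5p: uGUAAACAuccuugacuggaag
miR-26a-5p: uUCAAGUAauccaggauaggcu
miR-26b-5p: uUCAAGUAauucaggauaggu
miR-215-5p: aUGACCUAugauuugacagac
miR-194-5p: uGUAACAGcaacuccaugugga

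In RefSeq (GRCm38.p6), miR-7036a-5p lies at chr5:137296661-137296683 on the minus strand, within the span of Srrt, and miR-6937-5p at chr12:28679325-28679348 on the plus strand, within Adi1. miR-8119 lies at chr4:129557756-129557775 (minus strand) within Lck. miR-2137 lies at chrX:72992113-72992133 (plus strand) within Zfp185, and miR-711 at chr9:108969970-108969991 (plus strand) within Col7a1. On the other side, miR-215-5p at chr1:185313610-185313630 and miR-194-5p at chr1:185313325-185313346 both lie on the plus strand within Iars2. miR-26a-5p lies at chr9:119031811-119031832 (plus strand) within Ctdspl and miR-26b-5p at chr1:74394324-74394344 (plus strand) within Ctdsp1; a second copy of miR-26a-5p lies within Ctdsp2. miR-30e-5p lies at chr4:120772660-120772681 (minus strand) within Nfyc. Only gene spans were compared, without strand, so exon, intron and untranslated region were not told apart. Of the miRNAs described below as having a 2-fold gap, 19 that were higher in organoids and 21 that were lower were located. Within the span of a protein-coding gene, at 1 or more of their positions, lay 17 of the 19 and 11 of the 21. This share was not counted over all tested miRNAs, so the difference between the directions is given as a description.

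Detection was uneven between arrays. A miRNA counted as detected where its spot was more than 2 SD above the mean blank spot of its array, which held for 1555 miRNAs (82.0%) on the day 1 array, 1359 (71.6%) on day 5, 1506 (79.4%) on villus and 1268 (66.8%) on crypt, with 1148 detected on all 4 and 239 on none. The added Spike Control spots stood 16422 and 8578 intensity units above the blank spots on the day 1 and day 5 arrays, against 28361 and 8540 units on the villus and crypt arrays. A side could count as higher only where both of its arrays detected the miRNA, which left 1409 miRNAs able to separate. Levels below are log2 intensities after normexp correction and quantile normalization, and the gap is the distance on that scale between the nearest organoid and tissue arrays, positive where organoids were higher. An array of the lower side that did not detect the miRNA was counted at its lowest detected level or above, and a gap set by such an array is a bound.

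Most separated miRNAs lay close together. Among the 441 that were higher in organoids the median gap was 0.10 and the median organoid minus tissue difference 0.23, and 327 had a gap below 0.25. Among the 251 that were lower the median gap was -0.12 and the median difference -0.34, and 172 had a gap smaller than 0.25 in size. The gap exceeded both the distance between the organoid arrays and the distance between the tissue arrays for 163 of the 441 and for 80 of the 251. All 4 arrays detected 367 of the miRNAs that were higher and 223 of those that were lower, and the other 74 and 28 had an undetected array on the lower side. The gap was set by that array, and is a bound, for 34 of the 74 and 17 of the 28. Undetected on both arrays of the lower side were 3 and 6.

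A 2-fold gap, 1 on the log2 scale, was reached by 20 miRNAs that were higher in organoids (1.21% of those tested) and by 26 that were lower (1.57%). Just inside the threshold lay miR-6546-3p with a gap of 1.04 and let-7c-5p with -1.01, and just outside it miR-135a-1-3p with 0.997 and miR-15a-5p with -0.98. The gap exceeded both within-side distances for 20 of the 20 and 23 of the 26. Day 1 organoids lay farther from tissue than day 5 organoids for 14 of the 20 and 21 of the 26, and crypt lay farther from organoids than villus for 9 of the 20 and 19 of the 26. Over all separated miRNAs day 1 was the farther for 244 of 441 and 161 of 251, and crypt for 290 of 441 and 152 of 251. In the plot of difference against level, these miRNAs form the outer edges of a cloud that is narrow at low levels.

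**Figure D1:**
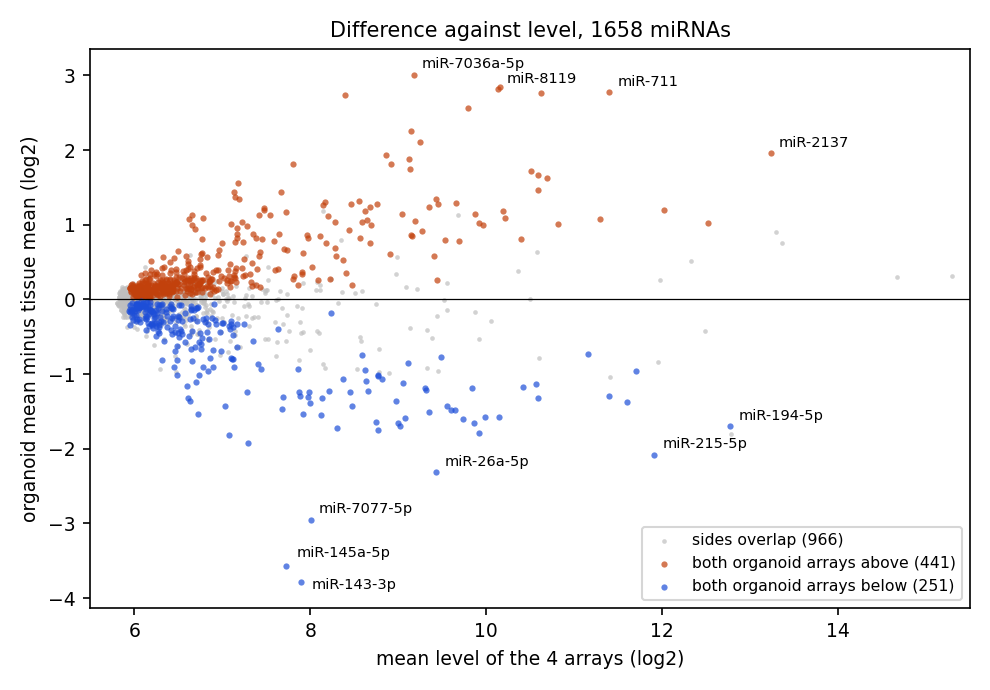
Each point is 1 of 1658 miRNAs, with the mean log2 level of the 4 arrays on the horizontal axis and the organoid mean minus the tissue mean (log2) on the vertical axis. The 441 miRNAs with both organoid arrays above both tissue arrays and the 251 with both below are coloured, and the 966 that overlap are grey. miR-2137 lies at a mean level above 13 with a difference of 1.96, and miR-711, miR-8119 and miR-7036a-5p lie above it in difference at lower levels.

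limma was fitted on the whole table to ask which differences exceeded the spread within the sides. After Benjamini-Hochberg adjustment over the whole table it called 1 miRNA higher in organoids (0.0603%), miR-2137, and 0 lower (0.0%). Over all miRNAs tested, 136 were higher and 82 lower at an unadjusted p under 0.05, and all of these were among the separated ones, which the same levels had chosen. The fit estimates its spread from 2 residual degrees of freedom per miRNA, together with a spread pooled over all miRNAs.

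miR-2137 rose in organoids. Its level was 14.22 on day 1 and 14.22 on day 5, against 12.26 in villus and 12.26 in crypt, a difference of 1.96 (SE 0.0675) with an adjusted p of 0.0386 in limma. The levels of a side are equal because miR-2137 was the 3rd brightest miRNA on both organoid arrays and the 11th brightest on both tissue arrays, and quantile normalization gives equal ranks equal levels. Its own spread within the sides was therefore 0, and the SE of 0.0675 came only from the spread that limma pooled over all miRNAs. Under the 5 other scalings its SE lay between 0.30 with cyclic loess and 0.84 with median scaling. Under other scalings the arrays of a side were not equal, and the adjusted p of miR-2137 in limma was 0.999 with median scaling, 0.386 with 75th percentile scaling, 0.255 with cyclic loess, 0.440 when Spike Control spots set the scale and 0.163 when 8 epithelial miRNAs did. In the authors' deposited values it was 0.0327. Without day 5 it was 0.306, without day 1 0.501, without villus 0.0706 and without crypt 0.0361. The gap stayed above 0 in all scalings, at 1.02 or more.

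The deposited values gave more calls. With entries that the authors left empty set to the lowest entry of the array, limma called 32 miRNAs higher (1.93% of those tested) and 32 lower (1.93%) in organoids. Of the 2-fold members, 15 of the 20 that were higher and 10 of the 26 that were lower were among them, which is 46.9% of the 32 calls upward and 31.2% of the 32 downward. Of the downward calls, 12 were not detected on all 4 arrays, against 3 of the upward calls, and their differences depend on the filled entries. miR-7036a-5p, miR-8119 and miR-6937-5p had differences of 3.67, 2.94 and 3.0 there, with adjusted p of 0.00015, 0.0017 and 0.0014 in limma. miR-26a-5p had -2.38 with an adjusted p of 0.012. These calls rest largely on a spread that limma pooled over all miRNAs, which outweighed the 2 residual degrees of freedom per miRNA. The SE was therefore nearly the same for miR-7036a-5p, miR-8119, miR-6937-5p and miR-26a-5p, at 0.604, 0.588, 0.588 and 0.584. The adjusted p there says little about the spread of each miRNA by itself.

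miR-7036a-5p had the largest gap, with levels of 11.21 on day 1 and 10.15 on day 5, against 7.69 in villus and 7.65 in crypt. The nearest arrays were 2.46 apart, and the mean difference was 3.01 (SE 0.40, adjusted p = 0.124 in limma). Both organoid arrays were high and both tissue arrays low, with the tissue arrays nearly equal. miR-7036a, miR-6937, miR-7047 and miR-7053 carry names from a set annotated as mirtrons, hairpins formed by short spliced introns, and no function is described here for them.

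miR-8119 measured 11.40 on day 1 and 11.69 on day 5, against 8.31 in villus and 9.15 in crypt (gap 2.25, adjusted p = 0.115 in limma). miR-6937-5p measured 11.32 and 10.83 in organoids, against 8.68 in villus and 8.33 in crypt (gap 2.15, adjusted p = 0.083 in limma). miR-7047-5p measured 10.23 and 10.32 in organoids, against 7.91 in villus and 8.14 in crypt (gap 2.09, adjusted p = 0.081 in limma). In each of the 3, the groups were more than 4-fold apart at their nearest arrays and closer than that within a side.

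miR-6769b-5p measured 12.12 and 11.06 in organoids, against 9.06 in villus and 8.41 in crypt (gap 2.0). miR-8099 measured 10.28 and 9.23 in organoids, against 6.62 in villus and 7.42 in crypt (gap 1.81). miR-711 measured 12.98 and 12.58 in organoids, against 10.83 in villus and 9.19 in crypt (gap 1.75). For miR-711 the tissue arrays were themselves 1.65 apart, close to the gap, and its unscaled intensities were 12805 on day 1 and 3396 on day 5, against 4714 in villus and 253 in crypt. Before any scaling, day 5 therefore lay below villus. Unscaled intensities separated 9 of the 20 miRNAs that were higher and 14 of the 26 that were lower, so the separation of the others came with the scaling.

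miR-128-2-5p measured 10.72 and 9.88 in organoids, against 8.11 in villus and 8.27 in crypt (gap 1.61), and miR-204-3p measured 8.91 and 8.50, against 6.96 and 6.83 (gap 1.54). These are the less studied strands of hairpins whose main products, miR-128-3p and miR-204-5p, are known from brain and from eye. The main strands were near the blank level on every array. miR-128-3p measured 5.93 and 6.12 in organoids, against 6.13 and 6.13 in villus and crypt, and miR-204-5p measured 6.13 and 6.02, against 6.05 and 6.02. miR-680 had a gap of 1.45, and miR-7053-5p measured 10.15 and 9.52 in organoids, against 8.08 in villus and 7.71 in crypt. The miRNAs that were higher in organoids with an undetected tissue array had small gaps. The largest were bounds of 0.35 for miR-5625-5p and 0.28 for miR-7117-5p, and gaps of 0.31 for miR-125b-1-3p and 0.24 for miR-344g-3p that a detected array set.

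**Figure D2:**
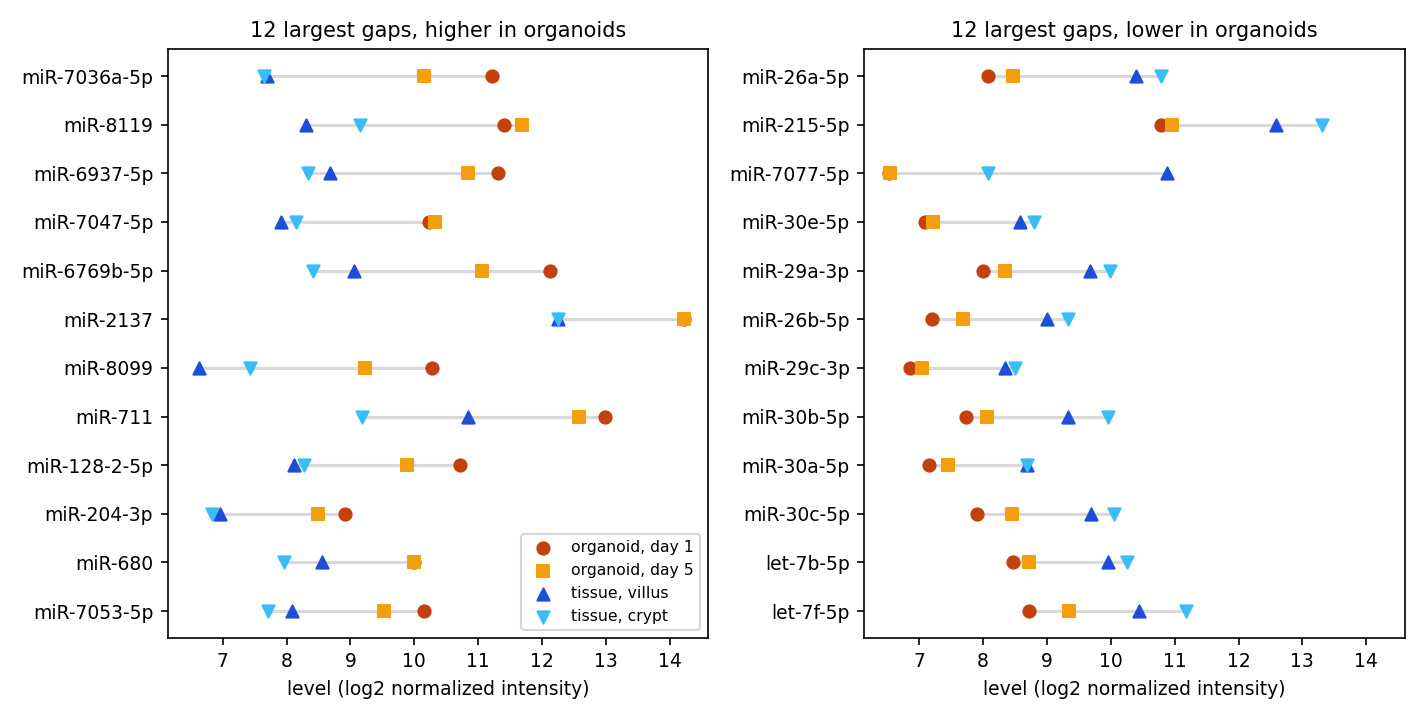
Log2 normalized intensity of the 12 miRNAs with the largest gaps in each direction among those detected on all 4 arrays, with 1 point per array and a line over the range. On the left both organoid points lie to the right of both tissue points, from 1.44 apart for miR-7053-5p to 2.46 for miR-7036a-5p; on the right they lie to the left, by 1.11 for let-7f-5p to 1.92 for miR-26a-5p.

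The lists below are families and cell types, chosen with earlier results of these data in view. With quantile normalization none of their members passed limma after adjustment. In the deposited values some did, among them miR-143-3p (adjusted p = 2.9e-06 in limma), miR-210-3p (0.0022) and miR-26a-5p (0.012). Others did not, such as miR-215-5p (0.077) and let-7b-5p (0.158). The limits given above for the deposited calls apply to these too. Each list is given by how many members separated and by its median difference. The counts can be read against the 26.6% of all 1658 miRNAs that separated upward and the 15.1% that separated downward. The median difference can be read against a median of 0.02 over all 1658.

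miR-192, miR-194 and miR-215 are the miRNAs that mark intestinal epithelium, where the transcription factors of the Hnf family drive them. Both organoid arrays were below both tissue arrays for 5 of the 6 probes of this list and above for 0, with a median difference of -1.16. miR-215-5p measured 10.78 on day 1 and 10.96 on day 5, against 12.58 in villus and 13.31 in crypt (gap -1.63), and miR-194-5p measured 11.60 and 12.26, against 13.31 and 13.93 (gap -1.06). miR-192-5p measured 10.51 and 11.32, against 11.60 and 12.98, which left a gap of -0.28. With scaling to 8 epithelial miRNAs, which include these 3, the count was 1 of 6. All 6 were detected on every array, and day 5 lay nearer to tissue than day 1 for these 3.

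The miR-200 family, which keeps epithelial cells from turning mesenchymal by repressing Zeb1 and Zeb2, had smaller gaps. Both organoid arrays were below both tissue arrays for 6 of 9 probes, none by 2-fold, and the median difference was -1.13. The count was 8 of 9 with median scaling, 2 with the background column subtracted and 0 with epithelial scaling, which uses members of this family and under which 5 lay above. miR-141-3p measured 8.68 and 9.01 in organoids, against 9.45 in villus and 11.10 in crypt (gap -0.44). miR-200c-3p measured 9.07 and 9.41, against 9.65 and 11.21 (gap -0.24), and miR-200b-3p 9.61 and 10.39, against 10.51 and 11.76 (gap -0.12). In each the crypt array was far above the rest and the villus array just above day 5.

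The let-7 family, which favours differentiation and is held back by Lin28 in undifferentiated cells, was lower in organoids for 9 of 9 probes, 6 of them by 2-fold, with a median difference of -1.48. The count stayed 9 of 9 with median, 75th percentile, cyclic loess and Spike Control scaling, and was 2 with the background column subtracted and 1 with epithelial scaling. With median scaling the gaps were smaller, at -0.29 for let-7b-5p and -0.70 for let-7f-5p. The only 2-fold gap downward there was that of miR-194-5p, at -1.04, so no let-7, miR-29 or miR-30 probe reached 2-fold. let-7b-5p measured 8.47 and 8.72 in organoids, against 9.95 in villus and 10.25 in crypt (gap -1.23). let-7f-5p measured 8.72 and 9.34, against 10.45 and 11.18 (gap -1.11). let-7e-5p had a gap of -1.08 and let-7a-5p one of -1.06. These probes differ in few bases, so cross-hybridization between let-7 members can make their values alike. The let-7 seed GAGGUAG is carried by 10 tested miRNAs, and both organoid arrays were below both tissue arrays for 10 of them.

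The miR-30 family separated in all 7 of its probes, 5 of them by 2-fold, with a median difference of -1.39. The count was 4 of 7 with the background column and 1 with epithelial scaling. miR-30e-5p measured 7.09 on day 1 and 7.22 on day 5, against 8.58 in villus and 8.80 in crypt (gap -1.36). miR-30b-5p measured 7.72 and 8.06, against 9.33 and 9.95 (gap -1.27), and miR-30a-5p 7.16 and 7.45, against 8.70 and 8.70 (gap -1.25). The arrays of a side were at most 0.62 apart for these 3.

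The miR-29 family, which is known for repressing collagen and DNA methyltransferase messages, was lower by 2-fold in all 3 probes, with a median difference of -1.64. Of the 3, 2 stayed separated with the background column and 0 with epithelial scaling. miR-29a-3p measured 8.01 and 8.34 in organoids, against 9.67 in villus and 9.98 in crypt (gap -1.34). miR-29c-3p measured 6.85 and 7.04, against 8.34 and 8.50 (gap -1.29), and miR-29b-3p 7.55 and 8.31, against 9.35 and 9.78 (gap -1.05). Villus and crypt lay close together in each.

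miR-26a-5p, whose known targets include the Polycomb gene Ezh2, had the largest gap of the miRNAs that were lower. It measured 8.08 on day 1 and 8.47 on day 5, against 10.39 in villus and 10.78 in crypt, with a gap of -1.92 and a difference of -2.32 (SE 0.22, adjusted p = 0.085 in limma). miR-26b-5p measured 7.20 and 7.69, against 8.99 and 9.33 (gap -1.30), and miR-148a-3p 7.22 and 7.48, against 8.45 and 9.35 (gap -0.97). All 5 probes of the miR-26 and miR-148 families separated downward, with a median difference of -1.55, and 4 of the 5 did so with epithelial scaling, as did 4 once the background column was subtracted. miR-152-3p was undetected on day 5, and its gap of -0.96 is the distance of day 1 from villus.

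All 5 probes of miR-23, miR-27 and miR-24, which come from shared clusters, separated downward with a median difference of -1.12, none by 2-fold. This count rested on the scaling: it was 1 of 5 with median scaling, 2 with Spike Control, 3 with the 75th percentile and 0 with epithelial scaling. miR-23b-3p had a gap of -0.98, miR-27b-3p one of -0.84 and miR-27a-3p one of -0.56. Of the miR-15 and miR-16 family, which represses cell cycle genes, 4 of 6 probes separated downward and 0 upward, with a median of -1.05. The count was 5 with median scaling, 1 with the background column and 0 with epithelial scaling. miR-195a-5p measured 6.26 and 6.38 in organoids, against 8.01 in villus and 7.48 in crypt (gap -1.10), and miR-16-5p 9.04 and 9.67, against 10.56 and 11.32 (gap -0.89).

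The miR-17 clusters are known for driving proliferation. With quantile normalization 11 of their 13 probes overlapped between the sides, whereas 12 of 13 separated downward with median scaling and 10 with 75th percentile scaling, against 5 with Spike Control and 0 with epithelial scaling. Their median difference was -0.91. The crypt array was the highest for miR-17-5p, which measured 8.49 and 9.47 in organoids, against 8.94 in villus and 10.93 in crypt. The 2 that separated downward were miR-19b-3p and miR-363-3p, with gaps of -0.18 and -0.05. The endocrine miRNAs miR-375-3p, miR-7a-5p and miR-7b-5p overlapped in 3 of 3, with a median difference of -0.21.

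Of the 12 probes for miRNAs of hypoxia, stress and injury, 1 separated upward and 6 downward, with a median of -0.18. The downward count was 5 with 75th percentile scaling, 1 with median scaling and 2 with Spike Control. With epithelial scaling 1 lay below and 7 above. The 1 upward was miR-210-3p, a target of the hypoxia-inducible factor, with levels of 7.23 on day 1 and 8.68 on day 5, against 6.33 in villus and 6.47 in crypt. Its gap of 0.76 was smaller than the 1.45 between the organoid arrays. In limma its mean difference of 1.56 had an SE of 0.55 and an adjusted p of 0.392. With the deposited values the adjusted p of miR-210-3p in limma was 0.0022. It stayed separated upward in all 8 other settings of scaling, background and deposited values, with a smallest gap of 0.10. miR-31-5p, linked to intestinal regeneration in mice, measured 8.83 and 8.56, against 9.19 and 9.88 (gap -0.36). miR-22-3p had a gap of -0.70, but its sides overlapped with median, 75th percentile, Spike Control and epithelial scaling. miR-146b-5p had a bound of -0.72.

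**Figure D3:**
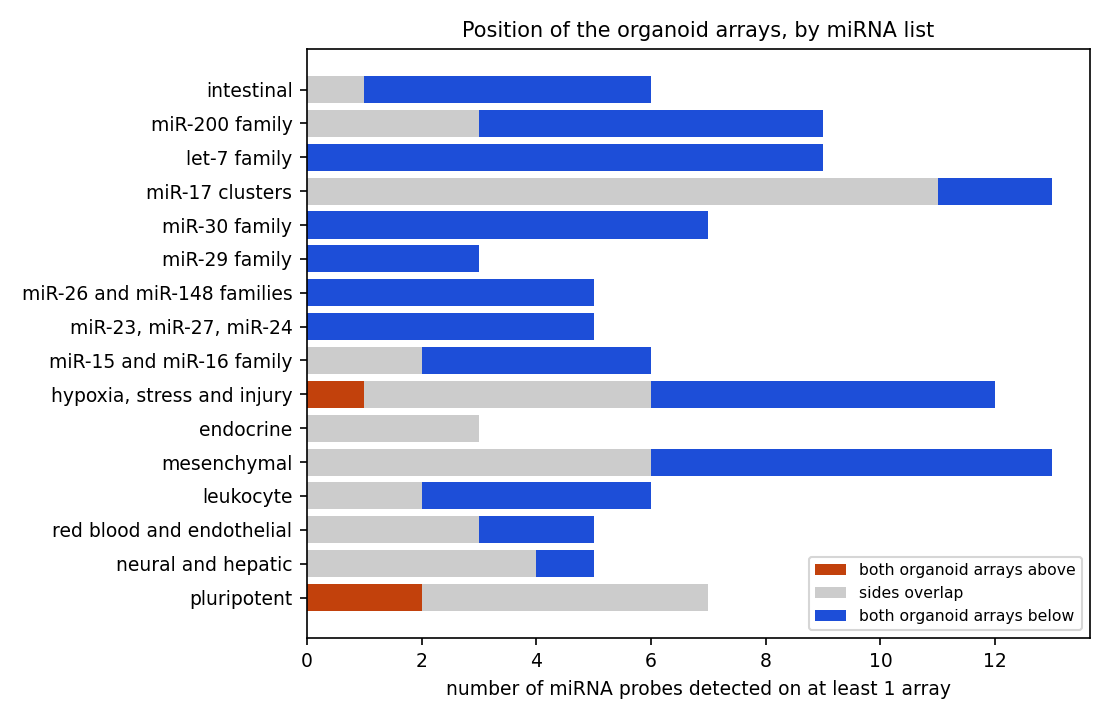
Number of tested miRNA probes per list for which both organoid arrays lay above both tissue arrays, overlapped with them, or lay below both. All 9 let-7, 7 miR-30, 3 miR-29, 5 miR-26 and miR-148, and 5 miR-23, miR-27 and miR-24 probes lie below with quantile normalization, where 11 of 13 miR-17 cluster probes overlap; with median scaling 12 of those 13 separate downward.

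Of 24 tested probes for markers of cells outside the epithelium, 13 separated downward, 0 upward and 11 overlapped with quantile normalization. Fewer separated downward with Spike Control and with epithelial scaling, as given by list below. Of all tested miRNAs, 15.1% separated downward and 26.6% upward. Some of the 13 gaps were small, at -0.04 for miR-199a-5p, -0.11 for miR-150-5p and -0.14 for miR-142a-3p. The unscaled crypt intensities of these were 74.1, 73.7 and 72.4, against a detection limit of 69.5, and those of villus were 535, 358 and 452. In bulk RNA, fewer cells of a type and less RNA per cell cannot be told apart. miR-143-3p and miR-145a-5p, which mark smooth muscle and fibroblasts, measured 6.04 and 5.96, and 6.0 and 5.88, in day 1 and day 5 organoids, against 11.91 and 7.67, and 11.76 and 7.25, in villus and crypt. Both were undetected on the day 5 array and just above the limit on day 1, which set gaps of -1.63 and -1.25. These gaps moved with the setting: for miR-143-3p and miR-145a-5p they were -0.83 and -0.59 with median scaling, -0.87 and -0.61 with Spike Control, -0.40 and -0.21 with epithelial scaling and -0.15 and -0.53 with the background column. With the blank mean subtracted they were -4.20 and -3.88.

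The whole mesenchymal list of 13 tested probes had 7 separated downward and 0 upward, with a median difference of -0.90. This list had 4 separated downward with Spike Control, 3 with the background column and 2 with epithelial scaling. Its summed linear level was 879 on day 1 and 932 on day 5, against 9428 in villus and 1259 in crypt, and 10, 7, 13 and 9 of the 13 were detected on the arrays in that order. Of 6 leukocyte probes 4 separated downward, with summed levels of 387 and 394 in organoids, against 1097 in villus and 525 in crypt. The leukocyte count was 3 with Spike Control and 1 with epithelial scaling. miR-142a-5p had a gap of -0.65 and miR-146a-5p one of -1.07, both set by day 1 with day 5 undetected. Of 5 red blood cell and endothelial probes 2 separated downward, miR-451a with a gap of -0.37 and miR-126a-3p with -0.22. This count was 1 with Spike Control, 0 with the background column and 0 with epithelial scaling. The summed levels of the 5 were 309 and 316 in organoids, against 1369 in villus and 355 in crypt. Probes without signal also add to these sums, because an offset was added to every intensity. The neural, hepatic and pancreatic list of 6 probes, all near the blank level, summed to 354 and 365 in organoids. It summed to 374 in villus and 383 in crypt. The organoid sums above are therefore mostly floor, and ratios between sums are not ratios of signal. Most of the mesenchymal sum in villus came from miR-143-3p and miR-145a-5p. The part of cells outside the epithelium in the other miRNAs that were lower in organoids was not tested.

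Lists for cells that neither side should hold gave little. Of the 5 tested neural, hepatic and pancreatic probes 1 separated downward (miR-128-3p, by -0.01), with a median of -0.07. Of the 7 pluripotent probes 2 separated upward, miR-290a-3p by 0.12 and miR-293-3p by 0.06, with a median of 0.07. These shares can be set against the 26.6% and 15.1% of all tested miRNAs.

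Naming differed between the directions, and so did G content among the 2-fold members and among the brighter miRNAs. RefSeq gave a mature sequence for 1405 of the 1658 tested miRNAs (84.7%), for 19 of the 20 with a 2-fold gap upward and for 21 of the 26 downward. The median G content was 52.4% of bases in the 19 (31.8% to 61.9%), 23.8% in the 21 (8.70% to 45.5%) and 27.3% in all 1405. Over all separated miRNAs with a sequence it did not differ, at 27.3% in the 385 that were higher and 27.3% in the 220 that were lower. The sequence GGGG, searched on the mature strand, was found in 11 of the 19, in 0 of the 21 and in 12.5% of all. It was found in 21.3% of the 385 and 5% of the 220. G content also goes with brightness: among 146 miRNAs with a sequence and a mean level of at least 8 the median was 42.9%, and within these it was 50% in the 59 that were higher, 27.3% in the 43 that were lower and 37.0% in the 44 that overlapped. The sequence GGGG was found in 34.9% of these 146. The 2-fold members were bright too, with a median level of 9.13 upward and 8.61 downward.

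**Figure D4:**
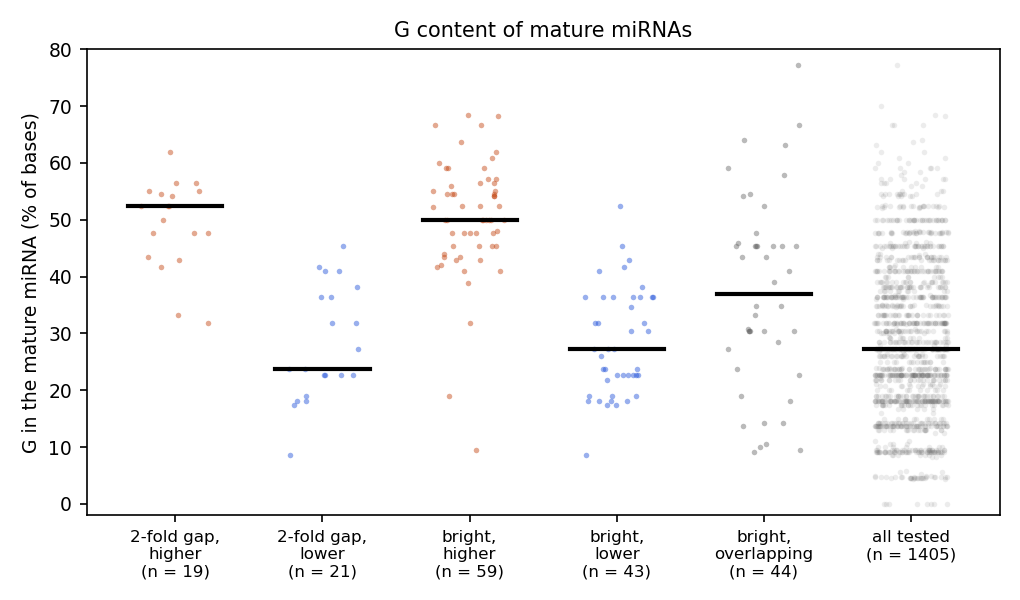
G content of the mature miRNA in percent of bases, 1 point per miRNA with a horizontal bar at the median, for the 2-fold members, for bright miRNAs (mean level at least 8) by direction, and for all 1405 with a sequence. The medians are 52.4% and 23.8% for the 2-fold members that were higher and lower, and 50%, 27.3% and 37.0% for the bright miRNAs that were higher, lower and overlapping.

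miRNA numbers are given in order of entry, so high numbers are late entries. Of the 2-fold members, 15 of the 20 that were higher were numbered from 1000, against 2 of the 26 that were lower and 58.3% of all tested. Among 531 tested miRNAs numbered below 500, 74 separated upward and 139 downward, and among 967 numbered from 1000, 323 separated upward and 96 downward. The band from 500 to below 1000 held 160, with 44 upward and 16 downward. miR-7077-5p is a high number on the lower side: it measured 6.52 and 6.54 in organoids, against 10.87 in villus and 8.08 in crypt.

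Among the 2-fold members, shared seeds and shared positions were found on 1 side. Of the 21 sequenced 2-fold members that were lower, 14 fell into 4 groups with the same seed, namely 6 with GAGGUAG (let-7), 3 with AGCACCA (miR-29), 3 with GUAAACA (miR-30) and 2 with UCAAGUA (miR-26). None of the 19 that were higher shared a seed with another. Within 10000 bases of another member of the same direction lay 11 of the 21 and 0 of the 19. The shares of all tested miRNAs with a common seed or a near neighbour were not counted, so these counts are a description. Family members were not measured independently where their probes are alike.

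Opposite strands of a hairpin are made from 1 transcript. The other arm of a 2-fold member that was higher was separated the same way in 7 of 11 pairs, overlapped in 2 and was opposite in 2. Where it went the same way the gap could be small: miR-7036a-3p had 0.02, miR-6937-3p 0.05 and miR-7047-3p 0.33. For the 2-fold members that were lower, the other arm was separated the same way in 5 of 20 pairs, overlapped in 12 and was opposite in 3. Over all separated miRNAs that were higher, the other arm went the same way in 114 of 288 pairs and was opposite in 35. Over all that were lower, it went the same way in 50 of 172 pairs and was opposite in 35. miR-215-3p, the partner of miR-215-5p, had a gap of -0.30.

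The balance between the directions rested on the scaling. Of all separated miRNAs, 63.7% were higher in organoids with quantile normalization, 53.3% with median scaling, 47.4% with 75th percentile scaling, 50.7% with cyclic loess and 78.6% with Spike Control scaling. With scaling to 8 epithelial miRNAs of the miR-192, miR-194, miR-215 and miR-200 families it was 98.9%, and that scaling moved the median of all tested miRNAs to 0.35. Under it the medians of the let-7, miR-30, miR-29, and miR-26 with miR-148 lists were -0.14, -0.35, -0.44 and -0.47, still below that median of 0.35, and those of the intestinal and miR-200 lists were 0.05 and 0.25. The 20 miRNAs with a 2-fold gap upward all stayed separated upward under that scaling, and 8 of the 26 stayed separated downward. In all 8 other settings of scaling, background and deposited values, 19 of the 20 and 7 of the 26 kept their separation.

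The widest separation over all settings was held by miR-8099, whose smallest gap was 1.48, miR-6937-5p with 1.21, miR-6769b-5p with 1.04, miR-2137 with 1.02, miR-204-3p with 0.94 and miR-128-2-5p with 0.68. On the other side it was held by miR-194-5p with -0.38, miR-26a-5p with -0.35, miR-148a-3p with -0.23, miR-26b-5p with -0.22, miR-145a-5p with -0.21 and miR-30b-5p with -0.15. miR-194-5p and miR-26a-5p were thus lower in organoids under every scaling, the one to epithelial miRNAs included. let-7b-5p, let-7f-5p and let-7a-5p turned direction when the background column of the scanner tables was subtracted, with differences of 0.35, 0.42 and 0.16.

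**Figure D5:**
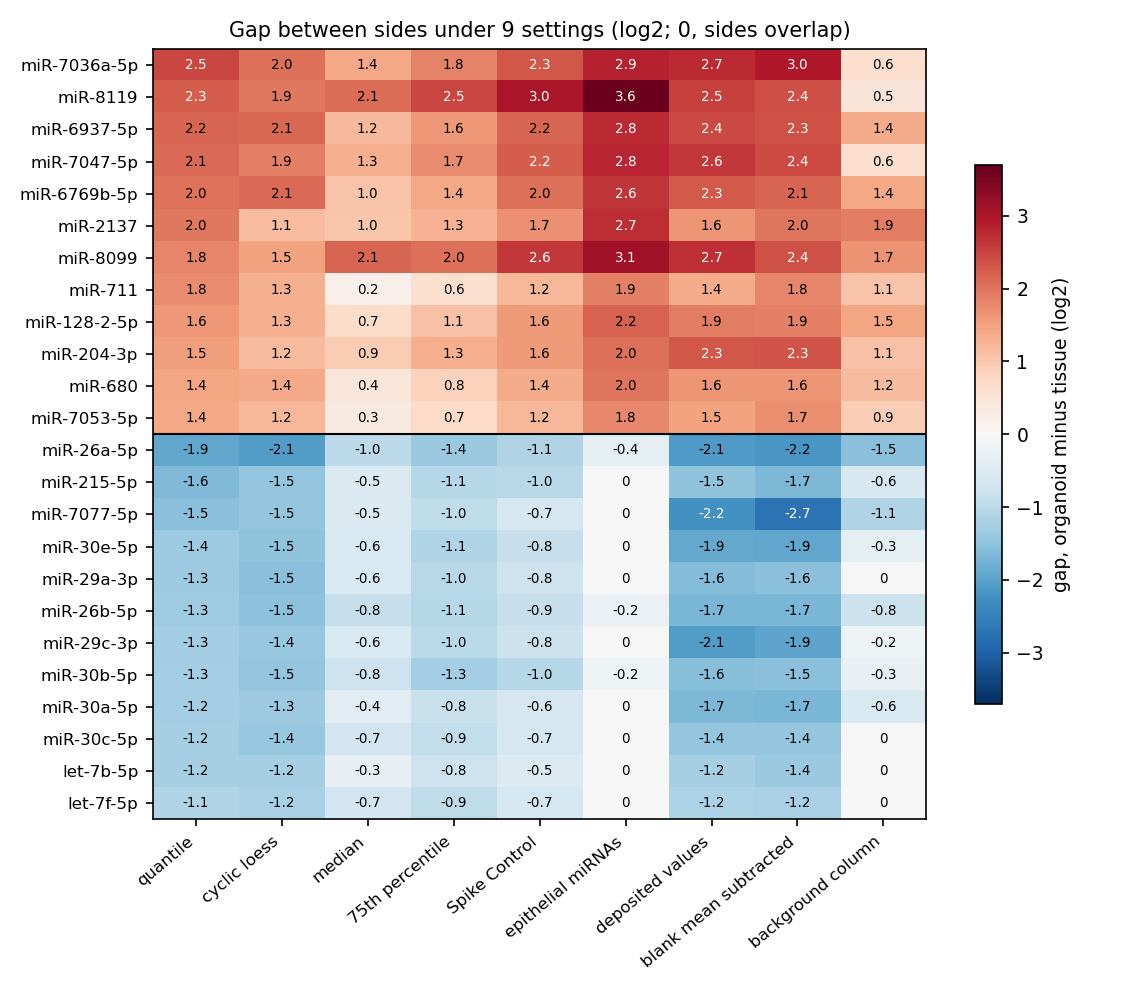
Gap on the log2 scale between the nearest organoid and tissue arrays for the 24 miRNAs with the largest gaps, under 9 scaling and background settings, with 0 where the sides overlap. The upper 12 stay above 0 in every column, down to 0.19 for miR-711 with median scaling, and the lower 12 stay below 0 except with scaling to epithelial miRNAs and with the background column subtracted, where several overlap.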

How the data were processed

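Total RNA of 4 samples was measured on 1-colour miRNA arrays. The deposited scanner tables give a median intensity per spot, linear in scale and not normalized between arrays; the authors combined scans at 3 gains with straight-line fits, per the file headers. The deposited table of processed values also holds linear intensity, with empty entries for probes not above the blank spots, and the sources used here name no tool for it. Of 1900 miRNA probes, 3 with a quality mark (miR-669h-5p, miR-7000-5p, miR-664-5p) were left out.

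Intensities were corrected with normexp (offset 50) on the spot intensity, because the background column follows its own spot, then log2 transformed and quantile normalized across the 1897 miRNA probes (limma 3.58.1, R 4.3.3). Detection limits came from 896 blank spots, trimmed by 5% at each end. An undetected array of the lower side counted at the higher of its own level and the lowest detected level of that array. limma compared 2 organoid with 2 tissue arrays over 1658 miRNAs with Benjamini-Hochberg adjustment at 0.05, and was tested on simulated data. Of the tested probes, 11 carry several names. The number of arrays limits the precision.

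Among probes with 1 name, the text names the 12 largest gaps each way among miRNAs detected on all 4 arrays. It also names the 4 largest gaps each way among those with an undetected array on the lower side. Named too are the 6 each way with the largest smallest gap over all settings. Members of 16 lists are named as well, of which up to 4 per list get gaps. Beyond that rule the text names miR-17-5p, miR-199a-5p, the endocrine miRNAs, the other arms and the miRNAs at the threshold. The rest of the let-7 seed group is only counted. The miRNAs and lists were chosen with earlier results of these data known. Sequences, positions and gene spans are from RefSeq (GRCm38.p6) and were matched by miRNA name. The alternatives were 5 scalings, 2 background settings, the deposited values, 3 filters and leaving out each array.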

Additional observations from a re-analysis of the deposited data

How the results depend on the processing

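With 1 array per kind of sample, a 2-fold gap has no replicate check, and dim miRNAs are limited by the blank level. Among alternatives, counts of separated miRNAs higher and lower in organoids stayed within 1.5 times of 441 and 251 with cyclic loess, blank mean subtraction, the deposited values and the 3 detection filters. The count of higher ones was 201 with median scaling, 180 with 75th percentile scaling, 257 with the background column subtracted and 1058 with scaling to 8 epithelial miRNAs; the count of lower ones was 129 with Spike Control and 12 with epithelial scaling. Leaving out each array gave 542 to 680 higher and 339 to 566 lower, with fewer arrays to overlap. A 2-fold gap upward was reached by 11 with median scaling, 12 with 75th percentile scaling, 78 with epithelial scaling, 9 with the background column, 54 with the blank mean and 55 with the deposited values, and by 27 to 48 when each array was left out. Downward it was reached by 1, 11, 0, 6, 53 and 57 in the same order, by 5 with Spike Control scaling, and by 25 to 74 when each array was left out. limma called 0 higher with median, 75th percentile, cyclic loess, Spike Control and epithelial scaling, with the background column, with the blank mean, and among miRNAs detected on all 4 arrays, and 32 higher and 32 lower with the deposited values. Leaving out each array gave 0 to 5 higher and 0 to 22 lower, the largest without crypt; without day 5, within 1 slide, limma called 0 either way, and miR-2137 had an adjusted p of 0.306. Without villus, without day 1 and among miRNAs detected on all 4 arrays its adjusted p was 0.0706, 0.501 and 0.0566.

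The organoid minus tissue difference turned positive with the background column for let-7b-5p (0.35), let-7f-5p (0.42), let-7a-5p (0.16), miR-215-3p (0.33), miR-363-3p (0.11), miR-31-5p (0.87), miR-10b-5p (0.083) and miR-126a-3p (0.089), and negative for miR-7036a-3p (-0.046). With epithelial scaling, which moved the median of all tested miRNAs to 0.35, it turned positive for miR-215-3p (0.082), miR-192-5p (0.0096), miR-200c-3p (0.28), miR-200b-3p (0.21), miR-429-3p (0.28), miR-19b-3p (0.24), miR-363-3p (0.15), miR-27b-3p (0.011), miR-27a-3p (0.090), miR-24-3p (0.14), miR-22-3p (0.28), miR-31-5p (0.46), miR-128-3p (0.14), miR-17-5p (0.54), miR-375-3p (0.33), miR-7a-5p (0.84) and miR-7b-5p (0.13). miR-7a-5p was also positive with Spike Control scaling (0.17), without day 1 (0.23), and leaving out each array gave -0.82 to 0.48 for miR-7a-5p and -1.91 to 0.050 for miR-17-5p, the positive ends without crypt. miR-204-5p, near 0 throughout, was negative with 75th percentile scaling (-0.00214) and without day 1 (-0.017). The cause was not tested. No other turn was found among the 78 miRNAs recomputed. No paired analysis was possible because the labels give no replicate numbers that pair organoid with tissue samples.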
